A study of Mus musculus with 2 samples.

Results

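The Rab GTPases were examined in mouse lung epithelial cells on 2 Agilent 1-colour arrays, 1 for cells labelled Mob1DKO and 1 for wild-type (WT) cells. Members were all array probes whose RefSeq accession maps to a symbol made of Rab, a number and an optional final letter, such as Rab3d, Rab27a or Rab11a. This rule found 80 of 55681 non-control probes, and they covered 57 of the 59 Rab symbols in the table of gene names. Rab36 and Rab44 were not analysed here. Both groups were C57BL/6 mice of 10 weeks. Mob1DKO is not spelled out in the labels and is read here as loss of Mob1a and Mob1b, adaptor proteins through which Hippo signalling switches on LATS kinases. The promoter that drives the deletion, the number of animals pooled and their sex are not given in the sources used here. Sex-linked genes differed between the arrays, as given below, so sex and genotype cannot be told apart in any difference. With 1 array per group there were no replicates, so every value below is a size without a p-value, and precision is limited by the number of arrays.

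Rab proteins are small GTPases that mark membranes with an identity. Exchange factors load them with GTP on a vesicle or organelle, effectors then move, tether or dock that membrane, GTPase-activating proteins switch them off, and carrier proteins take the inactive form through the cytosol. In the lung, alveolar type 2 cells secrete surfactant from lamellar bodies, which are lysosome-related organelles, and goblet and club cells secrete from granules, so that the epithelium depends on secretory as well as housekeeping Rabs.

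Most Rab genes differed little between the arrays. Levels are log2 of the processed signal minus the 75th percentile of that array, and differences are Mob1DKO minus WT on the log2 scale. Of the 57 Rab genes, 53 were well above background on both arrays, Rab26 was so on the WT array alone, and Rab30, Rab39 and Rab9b were so on neither. Over the 54 measured Rab genes the median difference was 0.06, beside 0.02 over all 15099 measured genes. Their middle 50% (interquartile range) lay between −0.05 and 0.23, and that of all genes between −0.18 and 0.22.

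A Rab gene was called when it differed by at least 2-fold and its brighter array passed the scanner's background test. This held for 3 Rab genes, Rab27a, Rab2b and Rab33a, all higher on the Mob1DKO array, and for none in the other direction. The 3 make 5.56% of the measured Rab genes, where 6.70% of all measured genes were called in either direction, with 3.79% of all genes higher and 2.91% lower. Under a 1.5-fold rule 5 Rab genes were higher and 1 was lower, which is 11.1% of them beside 14.8% of all genes (8.08% higher and 6.75% lower). A difference above 0 was seen for 36 of 54 Rab genes, or 66.7%, where the share was 53.3% of all genes. Only Rab27a and Rab2b were called among the 42 Rab genes whose brighter array reached the 75th percentile, a range of signal in which 4.76% of Rab genes and 2.23% of all genes were called. At 1.5-fold the same 2 were called there, beside 6.95% of all genes. With background passed on both arrays the 2-fold shares were 5.66% of 53 Rab genes and 2.68% of all genes. At 2-fold the share of calls among Rab genes was thus near that of all genes over all measured genes. In the narrower sets it was above that of all genes at 2-fold, where it rests on 2 or 3 genes. Rab2b, on a spot marked as non-uniform, is among these. At 1.5-fold the share of the 42 brighter Rab genes, 4.76%, was below that of all genes. Signs depend on the scaling: unscaled signals were higher in Mob1DKO cells, with a median over all genes of 0.93, and scaling on housekeeping genes put that median at 0.20, so that Rab3d, Rab10 and Rab4a, among others, lay above 0 under both.

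**Figure D1:**
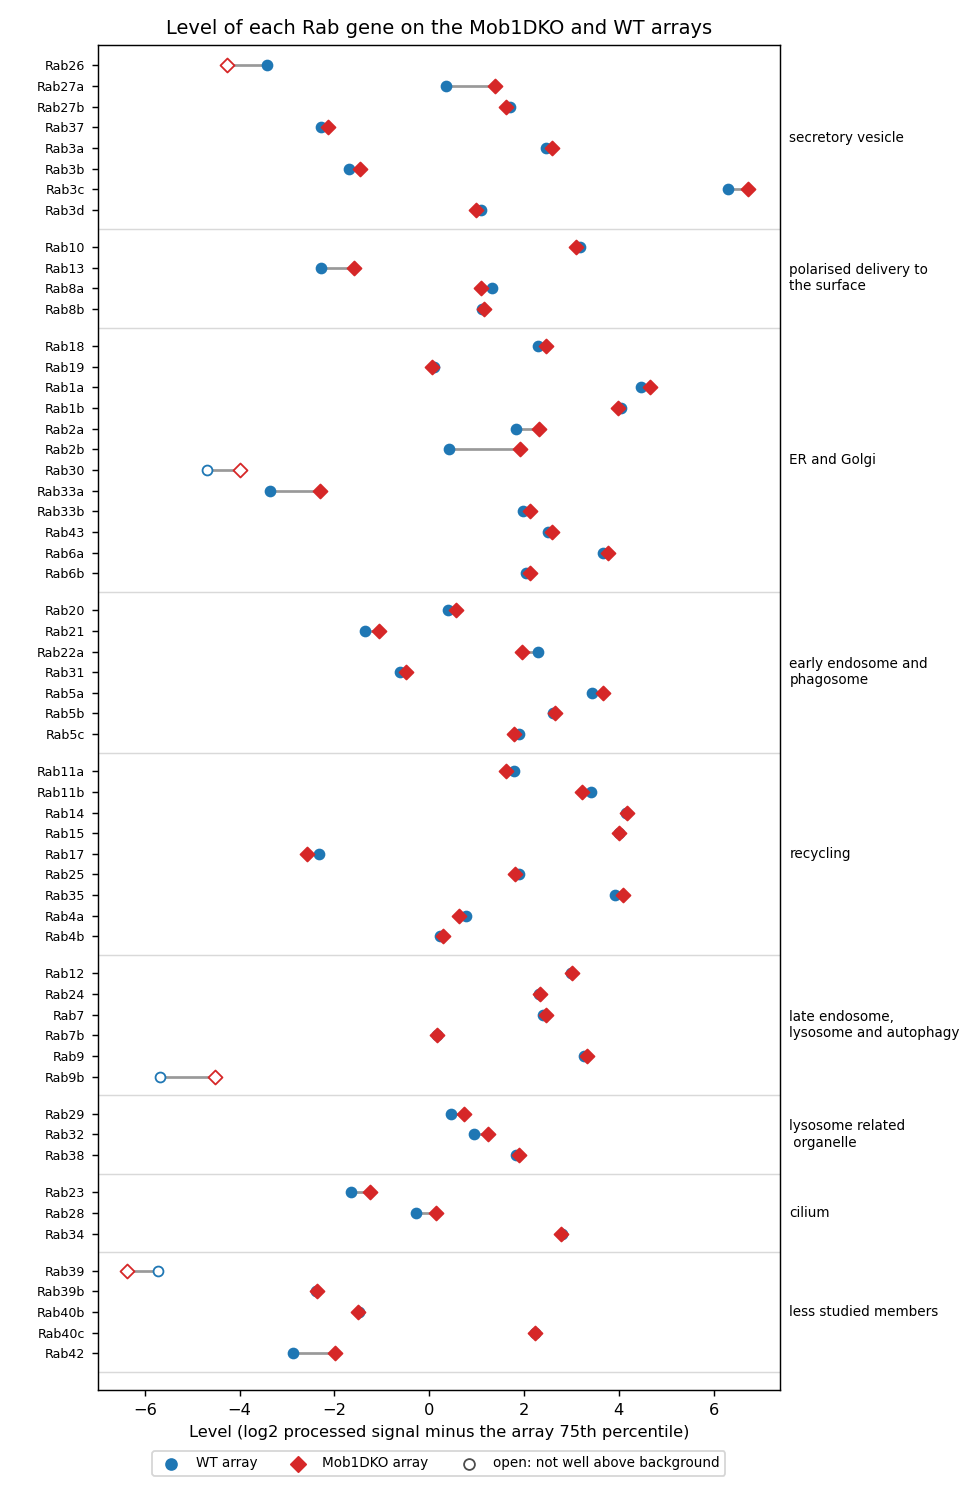
Level of each of the 57 Rab genes (log2 processed signal minus the array's 75th percentile) on the WT array (circles) and the Mob1DKO array (diamonds), in role groups, with open symbols where a probe was not well above background. Grey bars join the values of a gene; Rab27a, Rab2b and Rab33a span more than 1 unit among measured genes, whereas most pairs nearly coincide.

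The technical error of these differences was taken from gene probes printed at 10 spots. The SD of a difference between single spots was 0.061 for probes with a mean level above 2, 0.10 between 0 and 2, 0.24 between −2 and 0, and 0.49 below −2. It leaves out the spread between animals and RNA preparations, which was not measured. By this error 22 of 54 Rab genes, or 40.7%, differed by less than 1 technical SD, beside 39.1% of all genes. Among the 42 brighter Rab genes this held for 17, or 40.5%, beside 28.4% of all genes as bright. Rab5a, a GTPase of early endosome fusion, was itself printed at 10 spots. Its level ran from 3.59 to 3.75 on the Mob1DKO array (median 3.68) and from 3.38 to 3.47 on the WT array (median 3.43). The spots of both arrays did not overlap, at a mean difference of 0.24. They repeat 1 array per group, so this shows the precision of the spots and not a difference between animals. A second Rab5a probe differed by 0.36.

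The secretory vesicle Rabs, which act in the last steps of regulated exocytosis, comprised 8 measured genes. Rab27a, which docks granules and lysosome-related organelles at the plasma membrane, stood at 1.39 in Mob1DKO and 0.36 in WT cells. The difference was 1.03 (2.04-fold) against a technical SD of 0.10, from a single probe. It lies at the edge of the 2-fold rule, and it was 0.75 under a model-based background correction (normexp with an offset of 50, which also takes median pixels) and 0.84 when median pixels minus local background were used. The local background beside this spot was 81.5 on the Mob1DKO array, where the median over the array was 67, and the scanner software marked it as an outlier, as it did for 5.09% of spots there. Its part in the value was not tested.

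Rab27b, the closest relative of Rab27a, did not share the difference. It stood at 1.62 and 1.70 on the Mob1DKO and WT arrays, a difference of −0.08, and a second probe gave 0.04. Rab3d, a granule GTPase of exocrine and airway secretory cells, stood at 0.99 and 1.09, a difference of −0.10, with −0.19 on its second probe. For Rab3a, best known from synaptic vesicles, the levels were 2.59 and 2.46. Rab3c, another member of the exocytic Rab3 subfamily, stood at 6.73 and 6.29, a difference of 0.43. The 3 Rab3c probes went both ways, at 0.51, 0.43 and −0.47, where the last probe was faint, at −2.40 and −1.93, in a range with a technical SD of 0.49. Rab26, a granule GTPase of exocrine cells, was at −3.41 on the WT array and not well above background on the Mob1DKO array. After scaling it was at least 1.61-fold lower there, in a range with a technical SD of 0.49. This bound is weak. Before scaling the processed signals of Rab26 were 15.1 (Mob1DKO) and 14.5 (WT). Its WT level lay close to the lowest level that passed background on that array (−3.45). The scanner software marked the local background of the Rab26 spot as an outlier on both arrays. Rab37 and Rab3b differed by 0.13 and 0.24. As a group, 5 of 8 secretory Rabs lay above 0, with a median of 0.13.

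**Figure D2:**
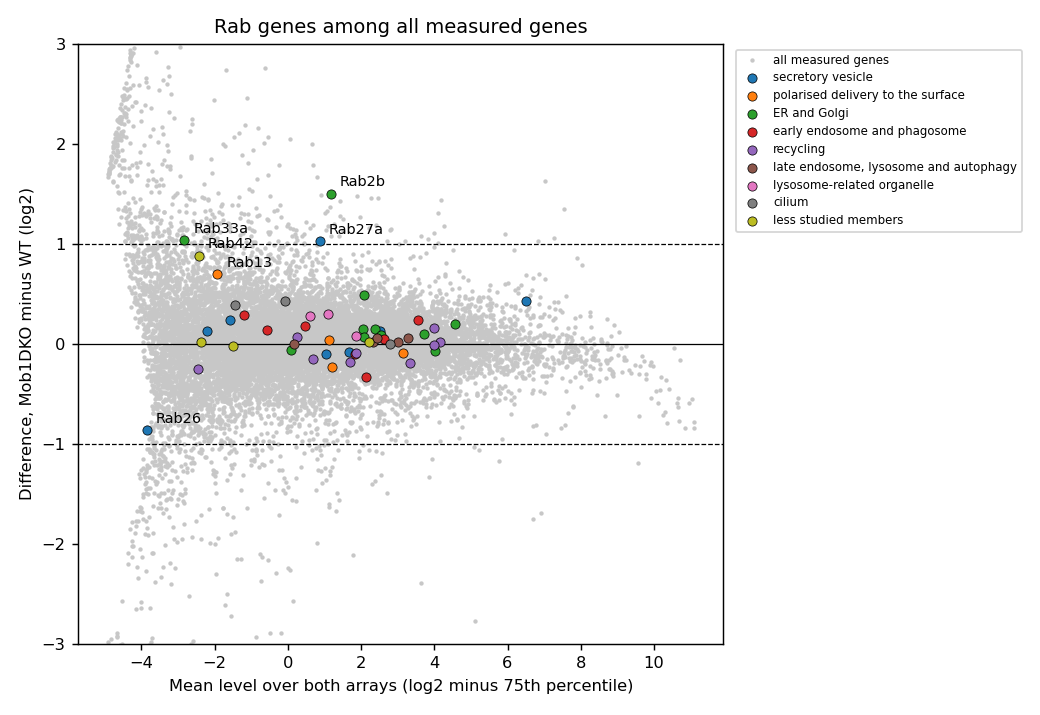
Difference between the arrays (Mob1DKO minus WT, log2) against the mean level over both arrays for all measured genes (grey) and the 54 measured Rab genes (coloured by role), with dashed lines at 2-fold and names on Rab genes past 1.5-fold. Rab27a and Rab2b stand out at intermediate signal, while Rab33a, Rab42, Rab13 and Rab26 lie at faint signals where all genes spread widely; 193 genes beyond 3 on the vertical axis are not drawn.

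Rabs of polarised delivery carry cargo from the Golgi and recycling endosomes to the apical or basolateral surface of epithelial cells. Rab10, which serves basolateral sorting, stood at 3.09 and 3.18 on the Mob1DKO and WT arrays. Rab8a, of apical delivery and cilia, was at 1.09 and 1.32, a difference of −0.23, but a second probe gave 0.17. Its paralog Rab8b differed by 0.04. Rab13, which is linked to tight junction assembly, was at −1.58 and −2.28, a difference of 0.70 with a technical SD of 0.24. It was 0.00 under the model-based background correction, whose offset compresses faint signals. Under it the faint Rab39b and Rab37 moved from 0.02 and 0.13 to −0.38 and −0.30, while Rab26 moved from −0.86 to −0.77. A value near 0 under this correction is therefore not read as no difference for faint genes. The scanner software marked the local background beside the Rab13 spot on the Mob1DKO array as an outlier. None of these 4 genes reached 2-fold, and 2 of them lay above 0.

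Among the 11 measured Rabs of the ER and Golgi, 9 lay above 0, with a median of 0.15. Rab2b showed the largest value of any Rab gene, at 1.92 in Mob1DKO and 0.42 in WT cells, a difference of 1.504 (2.84-fold). That value rests on 1 of only 2 spots of 62976 on the Mob1DKO array that the scanner software marked as non-uniform. The median pixel of the spot read 595 and its processed signal, which is based on the mean pixel, 1104, whereas on the WT array these were 283 and 207. With median pixels the difference was 0.37. Among 11297 spots of named genes at or above the 75th percentile on both arrays, the spot of Rab2b was the 1 whose difference moved by more than 0.5 between mean and median pixels. With marked spots left out Rab2b has no value, and 2 of 53 Rab genes are called.

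Rab2a, the paralog of Rab2b that acts at the same Golgi step, was at 2.31 and 1.83, a difference of 0.49. Rab1a and Rab1b, required for transport from the ER to the Golgi, stood at 4.67 against 4.47 and at 3.97 against 4.04, on the Mob1DKO and WT arrays in that order. Rab6a and Rab6b, of retrograde transport through the Golgi, differed by 0.10 and 0.07, Rab18 of the ER and lipid droplets by 0.15, Rab43 by 0.09 and Rab19 by −0.06. Rab33b, a Golgi Rab that also binds autophagy proteins, differed by 0.15, and its second probe by 0.04.

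Rab33a, the other member of the Rab33 pair, was faint, at −2.31 in Mob1DKO and −3.35 in WT cells. Its difference of 1.04 (2.06-fold) had a technical SD of 0.49, and it was 0.02 under the model-based background correction and 1.13 with median pixels. Rab33a is X-linked, as are Rab39b, Rab9 and Rab9b. The X-linked Xist stood at −1.48 in Mob1DKO and 0.82 in WT cells and was well above background on both arrays. The Y-linked Eif2s3y and Ddx3y were well above background in Mob1DKO cells alone. Sex of the animals and genotype therefore cannot be told apart, for these or any other Rab genes. Rab39b, a neuronal Rab, and Rab9, of transport from late endosomes to the Golgi, differed by 0.02 and 0.06.

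Early endosome and phagosome Rabs receive internalised cargo. Of 7 measured genes 5 lay above 0 with a median of 0.14, and none passed 1.5-fold. Rab5b stood at 2.65 and 2.60 on its brightest probe, and its 3 other probes lay between −0.64 and −0.01. Rab5c, the third isoform, differed by −0.10. Rab22a, an early endosome GTPase, was at 1.96 in Mob1DKO and 2.29 in WT cells, and its difference of −0.33 was the largest of this group in size. Rab21, which binds integrins, differed by 0.29, Rab20 by 0.18 and Rab31 by 0.14.

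The recycling Rabs return receptors and membrane to the surface, and of 9 measured genes 3 lay above 0, with a median of −0.09. Rab11a, the central GTPase of the recycling endosome, stood at 1.61 in Mob1DKO and 1.80 in WT cells, a difference of −0.19 with a technical SD of 0.10. Rab11b was at 3.23 and 3.42, a difference of −0.19 with a technical SD of 0.061. Rab25, the member of the Rab11 subfamily that is restricted to epithelia, differed by −0.09. Rab4a, of fast recycling, differed by −0.15 and by −0.23 on its second probe, while Rab4b differed by 0.07. Rab14 stood at 4.17 and 4.15 and Rab35 at 4.09 and 3.93, while Rab15 differed by −0.01 on its brighter probe and by −0.52 on its faint one. Rab17, an epithelial Rab of transcytosis, had 2 faint probes, 1 at −0.25 and 1 that passed background in Mob1DKO cells alone, where it was at least 1.30-fold higher. Relative to all genes the recycling median was −0.11, and it was 0.0008 under the model-based background correction.

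The ER and Golgi median exceeded the recycling median by 0.24. This gap was picked out after its value was seen, and it was not tested, since 1 array per group leaves no error for it. It lay between 0.19 and 0.29 under 14 other processing settings of the same arrays. Settings that change only the scaling constant shift every gene alike, so they could not change the gap.

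Late endosome, lysosome and autophagy Rabs were the most even group in the reported setting. Their 5 measured members ran from −0.0045 (Rab7b) to 0.063 (Rab9). Under the model-based background correction they ran from −0.05 (Rab7b) to 0.31 (Rab7), and with median pixels from −0.07 (Rab9) to 0.16 (Rab7). Rab7, which drives fusion with lysosomes, stood at 2.45 and 2.39, Rab12 at 3.01 and 2.99, Rab9 at 3.32 and 3.26, and Rab24, of autophagy, at 2.33 and 2.31. All 3 Rab9 probes lay between −0.04 and 0.06. All but Rab9, at 0.063 against 0.061, differed by less than the technical SD.

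Rab32 and Rab38, which deliver cargo to lysosome-related organelles such as melanosomes and lamellar bodies, stood at 1.24 against 0.94 and at 1.89 against 1.82 on the Mob1DKO and WT arrays. Rab29, a related GTPase that recruits the kinase LRRK2, was at 0.74 and 0.47, and its second probe differed by 0.20. All 3 of this group thus lay above 0, at 0.30, 0.07 and 0.28, and none passed 1.5-fold.

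Of the Rabs known from cilia, Rab34 stood at 2.78 and 2.79 and Rab28 at 0.15 and −0.28, a difference of 0.43. Rab23, which restrains Hedgehog signalling, had 2 probes of opposite sign. The brighter probe over both arrays gave −1.26 in Mob1DKO and −1.65 in WT cells, a difference of 0.39. The other was at −0.49 on the WT array and not well above background on the Mob1DKO array, where it was at least 12.2-fold lower. The direction of Rab23 is therefore unsettled. Of the less studied members, Rab42 was at −1.996 and −2.88, a difference of 0.88 with a technical SD of 0.49 that fell to 0.08 under the model-based background correction. Rab40c and Rab40b, which carry a ubiquitin ligase motif, differed by 0.01 and −0.02.

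**Figure D3:**
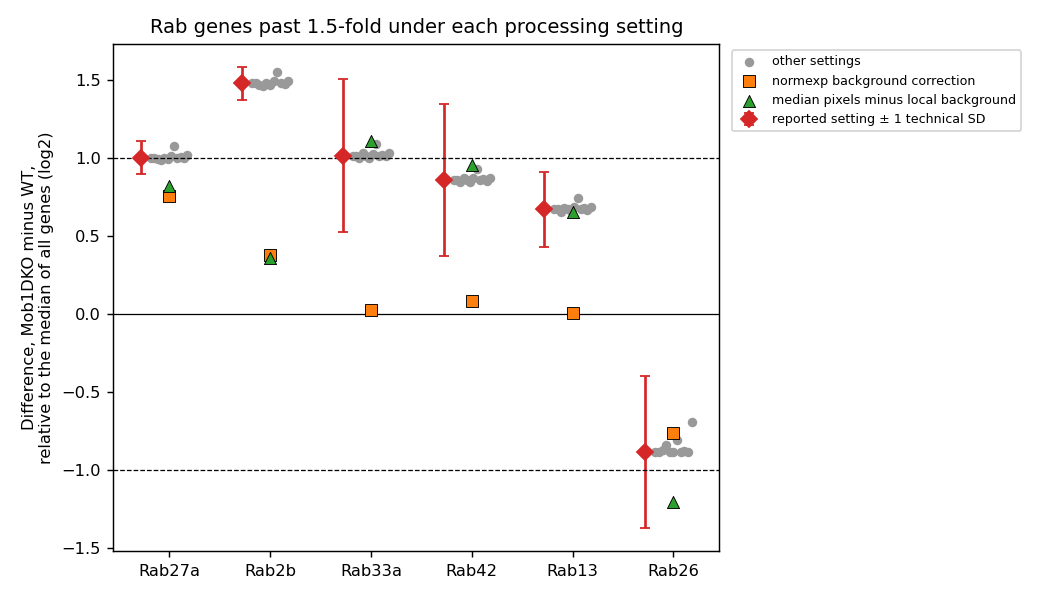
Difference (Mob1DKO minus WT, log2) of the 6 Rab genes past 1.5-fold, relative to the median of all genes, in the reported setting (red, ± 1 technical SD) and in the other processing settings, with dashed lines at 2-fold. The model-based background correction (squares) brings the faint Rab33a, Rab42 and Rab13 close to 0, and median pixels, used by that correction and alone (triangles), lower Rab2b by more than 1 unit, while Rab27a stays between 0.76 and 1.08. Other faint Rab genes, Rab39b and Rab37, moved below 0 under that correction, so values close to 0 do not show that a difference is absent.

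Several Rab genes had more than 1 probe, which gives a check within the arrays. For 17 Rab genes, 2 or more probes were well above background on an array, and of these genes 7 had probes of the same sign and 10 had probes of both signs, among them Rab8b by a probe that did not pass background in WT cells. The gap between the probes of a gene had a median of 0.12, was 0.98 for Rab3c, and passed 1 for Rab23 alone. The called genes Rab27a, Rab2b and Rab33a each had a single probe. Cross-hybridisation between close paralogs was not assessed.

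Promoter sequence is shown for Rab27a, the called gene with the firmest signal, and for Rab11a, a recycling Rab whose promoter holds the 6 letters recognised by TEAD factors, the DNA-binding partners of YAP and TAZ. Each line gives the 250 bases before an annotated start on the gene's strand, from RefSeq on GRCm38.p6, with capitals for GGAATG or its complement CATTCC (TEAD core) and for CACGTG (E-box). Rab27a has 2 such starts, at chr9:73044560-73044809 (+) and chr9:73063898-73064147 (+), and Rab11a has 1, at chr9:64737757-64738006 (-).
Rab27a, first start: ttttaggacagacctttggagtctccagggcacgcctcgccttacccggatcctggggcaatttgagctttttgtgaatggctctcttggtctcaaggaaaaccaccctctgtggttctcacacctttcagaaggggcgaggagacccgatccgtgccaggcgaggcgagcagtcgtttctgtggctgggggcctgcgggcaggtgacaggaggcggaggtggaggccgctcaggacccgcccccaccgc
Rab27a, second start: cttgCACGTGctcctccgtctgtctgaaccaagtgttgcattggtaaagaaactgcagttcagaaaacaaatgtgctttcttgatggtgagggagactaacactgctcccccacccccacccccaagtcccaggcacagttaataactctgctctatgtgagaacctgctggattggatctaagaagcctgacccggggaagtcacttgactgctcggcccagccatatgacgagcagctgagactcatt
Rab11a: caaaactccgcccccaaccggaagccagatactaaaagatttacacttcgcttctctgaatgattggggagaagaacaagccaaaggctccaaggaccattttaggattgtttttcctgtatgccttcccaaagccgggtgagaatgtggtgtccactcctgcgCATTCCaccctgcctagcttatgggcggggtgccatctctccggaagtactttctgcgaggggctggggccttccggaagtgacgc

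Of 60 promoters listed for 48 of the 57 Rab genes, 6 (10.0%) held GGAATG on either strand, where 12.6% of 32851 promoters did. They belonged to Rab11a, Rab11b, Rab15, Rab20, Rab21 and Rab5a, whose differences ran from −0.19 to 0.29. The palindrome CACGTG was present in 5 Rab promoters (8.33%) and in 6.02% of all promoters, and its Rab genes were Rab20, Rab21, Rab23, Rab27a and Rab5a. These are matches of letters and not mapped binding sites.

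Genes that regulate or bind Rab proteins were read from lists of 122 genes. Of 117 measured, 1 was called as higher and 2 as lower by the 2-fold rule, which is 2.56% beside 6.70% of all genes, and their median difference was 0.04. For 1 of the lower genes, Mical3, background limits the size to a bound below 2-fold. All 7 genes of the prenylation and recycling machinery were measured and none was called. They ran from −0.27 to 0.34, with a median of 0.11, and 3 of them differed by less than 1 technical SD. None of 29 measured exchange factors, 34 GTPase-activating proteins and 20 effectors of endosomal Rabs was called, with medians of 0.09, 0.01 and 0.05.

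All 3 called partner genes lay below the 75th percentile on both arrays. Rims1, a Rab3 effector of the presynaptic active zone, was at −2.38 in Mob1DKO and −0.50 in WT cells, a difference of −1.88, or −1.30 under the model-based background correction. Rph3a, which encodes the Rab3 and Rab27 effector rabphilin, passed background in Mob1DKO cells alone, by at least 2.94-fold, and under that correction its difference was 0.29. Mical3, an effector of Golgi Rabs in exocytosis, was well above background on the WT array alone and at least 1.80-fold lower on the other.

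Effectors that bind Rab27a were mixed. Rph3a and its relative Rph3al were higher in Mob1DKO cells, the latter at −1.87 against −2.57, a difference of 0.70 that was 0.04 under the model-based correction. The synaptotagmin-like proteins, Unc13d, Mlph, Myrip and Exph5 were picked out, without those 2 genes, after the value of Rab27a was seen. Of 9 such genes 8 were measured, 2 lay above 0 and none passed 1.5-fold, with a median of −0.22. Sytl1 stood at 1.23 in Mob1DKO and 1.57 in WT cells. Unc13d, the granule-priming partner of Rab27a, was at 2.32 and 1.92, a difference of 0.39.

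**Figure D4:**
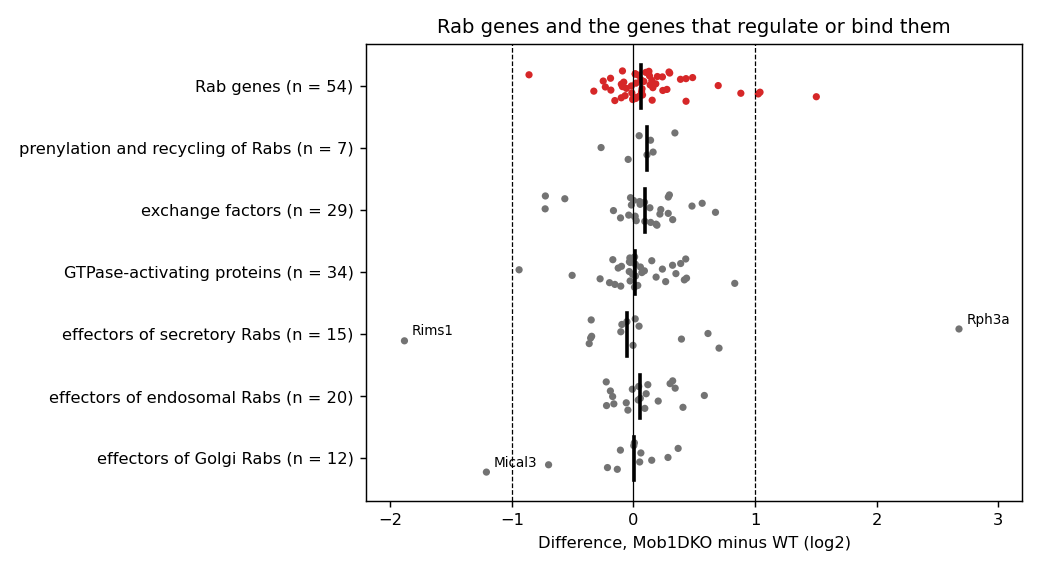
Difference (Mob1DKO minus WT, log2) of each measured Rab gene (red) and of each measured gene in 6 lists of Rab regulators and effectors (grey), with the list median as a black bar, dashed lines at 2-fold and names on called partner genes. The medians lie between −0.05 and 0.11, and the called partners are Rims1, Rph3a and Mical3.

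Some cell type markers differed between the arrays and stand beside these values. The lung epithelial genes Epcam, Cdh1, Krt8, Krt18, Krt19, Nkx2-1 and Cldn18 were all well above background on both arrays and none was called. All 7 goblet cell markers were at least 2-fold lower on the Mob1DKO array, and their summed level in multiples of the 75th percentile was 66.9 there and 284 on the WT array. For 8 alveolar type 2 markers the sums were 3976 and 5643, in which Sftpc, the brightest of them on both arrays, weighs most. None of the 8 was called, and their median difference was −0.25. Sftpc and Abca3 were past 1.5-fold lower, at −0.78 and −0.90, while 2 of the 8 lay above 0. All 3 club cell markers were past 1.5-fold lower, with sums of 3016 and 5385, and 3 of 5 basal cell markers and all 4 measured red cell genes were called as lower. No alveolar type 1, ciliated, fibroblast and smooth muscle, endothelial or neuroendocrine marker was called. In Mob1DKO and WT cells the sums were 126 and 104 for alveolar type 1 and 52.0 and 47.4 for ciliated markers. They were 100 and 106.5 for fibroblast and smooth muscle, 31.6 and 44.55 for endothelial and 6.43 and 8.48 for neuroendocrine markers. Of 10 leukocyte markers with a probe, 6 were well above background in Mob1DKO and 5 in WT cells. The sums were 254 and 286, of which Lyz2, also expressed by alveolar type 2 cells, made 242 and 274. Csf1r stood at 2.90 and 2.91 and Cd3e at 1.71 and 1.84 in Mob1DKO and WT cells. Cd79a was called as higher. It passed background in Mob1DKO cells alone, by at least 3.38-fold, and its difference was 0.20 under the model-based background correction. Ptprc, Cd52, Laptm5 and Mrc1 failed the background test on both arrays, as did the mast cell genes Cpa3, Mcpt4 and Kit. Of the platelet genes listed with them, Itga2b failed as well, Pf4 was called as lower, at −1.17, and Ppbp as higher. Ppbp passed background in Mob1DKO cells alone, by at least 1.06-fold. In such mixed preparations fewer cells of a type and less RNA per cell cannot be told apart, and the part of cell composition in the Rab values was not tested. Mob1b, which checks the labels, stood at −2.98 in Mob1DKO and −0.98 in WT cells, and Mob1a differed by 0.07 on a probe whose place relative to any deletion is unknown here, so it checks nothing about a deletion.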

How the data were processed

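The deposited scanner files hold linear intensity for each spot. The authors extracted them, per the file headers, with Agilent Feature Extraction 10.7.1.1 on a grid of build mm9, while the submitters' processing notes name 9.5.1.1. The processed signal is corrected for background within the array and not normalized between arrays. The deposited series table holds intensity values with a median of 27.3 in both columns and an unstated normalization, and served as an alternative.

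Spots were averaged per probe, control spots left out, and log2 values scaled on the 75th percentile (processed signal 291 on the Mob1DKO and 155 on the WT array). Probes were named through RefSeq accessions, 27235 of 55681 in all, giving 20660 genes. The brightest probe well above background on at least 1 array stood for a gene. Where the dimmer array did not pass background, a gene has a bound, set against the higher of its own value there and the lowest value well above background on that array (−4.10 on the Mob1DKO, −3.45 on the WT array). No saturated spots occurred. Normexp correction used limma 3.58.1 in R 4.3.3 on median spot signals, because the files used hold no mean signal. The fold part of the calling rule was tested on simulated data in which every gene passed background. All planted differences exceeded 2-fold, so this does not cover genes at the threshold or below background.

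Members and lists were chosen with earlier results of these data known. Values are given for Rab genes past 1.5-fold, for Rab27a, Rab3d and Rab11a, for the 2 brightest of each role group, for those with discordant probes and for partner genes past 2-fold. Others are named as ends of a range, as paralogs or for their role, after their values were seen. The alternatives comprised 13 planned settings and 1 added after seeing the data.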

Additional observations from a re-analysis of the deposited data

Results flagged for a closer look

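The second probe of Rab23 was marked for a closer look because it lies outside the comparison of gene values and carries a large signal on a single array. Its measured difference was −5.67, but it was well above background on the WT array and not on the Mob1DKO array, so the size is known only as a bound of at least 12.2-fold lower. Of 23 Rab probes that were not used for a gene value, it was the 1 that passed 2-fold with the brighter array well above background. The probe used for Rab23 differed by 0.39, and the cause of the disagreement was not tested.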

How the results depend on the processing

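Over 14 other settings the count of Rab genes higher by 2-fold stayed between 2 and 4, except 23 with no scaling, 0 under normexp and 1 with median pixels minus local background, a setting added after seeing the data. The Rab genes lower by 2-fold were 0, except 1 each with the median over probes (Rab23), the probe with the largest difference (Rab23) and median pixels (Rab26). At 1.5-fold, 5 higher Rab genes became 8 with housekeeping scaling, 52 with no scaling and 3 under normexp. The 1 lower became 0 with no scaling, 0 with background passed on both arrays, 2 with no background filter, 2 with the median over probes and 3 with the most different probe. Without scaling the median of all genes shifts to 0.93, and housekeeping scaling moves it to 0.20, and these settings shift every gene by the same amount.

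Over all genes, 572 higher and 439 lower became 6149 and 174 with no scaling, 99 and 172 under normexp, 174 and 198 with background passed on both arrays, 291 higher with a floor and 1208 lower with no filter. Of partner genes, 1 higher and 2 lower became 2 higher with housekeeping scaling, 46 and 0 with no scaling, 0 and 1 with background passed on both arrays, 4 lower with the most different probe, and 1 lower under normexp, with a floor and with median pixels.

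Relative to all genes, the Rab median of 0.041 became 0.17 under normexp. Under that setting polarised delivery Rabs went from −0.048 to 0.093, recycling Rabs from −0.11 to 0.0008, late endosome Rabs to 0.11 and ER and Golgi Rabs from 0.13 to 0.29. With no filter late endosome Rabs were at 0.092 and ER and Golgi Rabs at 0.20, and with median pixels late endosome Rabs were at −0.080. The cilium median of 0.36 became −0.025 with the median over probes and −0.033 with the most different probe, both through Rab23. Apart from these, the cause of the moves was not tested. Rab27a, Rab2b and Rab33a stayed above 0 in each setting that gave them a value, and Rab26 turned to 0.05 with no scaling alone. No paired analysis was possible because each group holds 1 array. Signal over background limits the faint Rab genes Rab33a, Rab42, Rab13 and Rab26.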
